A study of Homo sapiens with 5 samples.

Results

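The STAR locus was examined for binding of Steroidogenic Factor-1 (SF-1, encoded by NR5A1) in H295R/TR SF-1 cells. STAR (ENSG00000147465) lies on the minus strand at chr8:38000218-38008510 of the hg19 build. Every peak whose centre lay within 100 kb of this gene body was taken, on either side, in a window of 208 kb. Of 30372 peaks in the 4 deposited lists, 9 met this rule: 2 of 4393 peaks obtained with the Millipore antibody at basal dosage and 1 of 11910 on overexpression, and 1 of 6616 obtained with the Perseus antibody at basal dosage and 5 of 7453 on overexpression. As a share of the list this was 0.0455% (95% exact binomial interval 0.00551 to 0.164%), 0.00840% (0.000213 to 0.0468%), 0.0151% (0.000383 to 0.0842%) and 0.0671% (0.0218 to 0.156%). These intervals cover counting error over peaks alone. Among all 20163 protein-coding genes, a Millipore peak this near was present for 36.5% at basal and 67.9% at overexpressed dosage, and a Perseus peak for 52.6 and 56.7%, so that having one is common.

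The StAR protein moves cholesterol to the inner mitochondrial membrane, where the side-chain cleavage enzyme CYP11A1 turns it into pregnenolone, and this transfer is the rate-limiting step of acute steroid synthesis in the adrenal cortex and gonads. Its transcription is induced through cAMP and protein kinase A, and the promoter close to the start is known to be bound by SF-1 together with GATA, C/EBP and CREB family factors. Loss of StAR in humans causes congenital lipoid adrenal hyperplasia, in which cholesterol esters fill the steroid-producing cells. SF-1 binds DNA as a monomer, on a nuclear receptor half-site extended at its 5′ side.

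H295R cells derive from a human tumor of the adrenal cortex and are widely used as a cell line that makes steroids. In their subclone H295R/TR SF-1 added doxycycline induces extra SF-1. The basal groups are these cells without doxycycline, and the overexpressed groups are the same cells kept with it for 3 days. Each dosage was precipitated with 2 antibodies against SF-1, from Millipore and from Perseus Proteomics. All 4 groups derive from 1 subclone, the 3 libraries of a group were pooled before peaks were called, and 2 libraries of input DNA, without peaks of their own, served the caller as control. There is thus 1 list per group, and no difference between groups could be set against replicate error. Ranks run from 1, taken here as the best, within a list. They are given below as percent of the list, since the lists differ in length. The quantity the peaks were ranked on is not given in the sources used here, and neither are the read numbers behind the lists, so the depth is unknown.

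The 9 peaks fell on 8 distinct places, and the lists differed in where they placed them. With the Millipore antibody a site about 3 kb upstream of STAR was found at both dosages, and a worse-ranked peak inside the gene was found at basal dosage. With the Perseus antibody the basal peak lay downstream of STAR, in an intron of the neighbouring gene ASH2L. At overexpressed dosage the Perseus list instead held 1 peak at each of the starts of STAR, ASH2L and DDHD2, and 2 peaks at the start shared by LSM1 and BAG4. No place was found by both antibodies. Overlap with any other list, of either antibody, was found for 20.9% of basal and 16.6% of overexpressed Millipore peaks. For Perseus these shares were 37.7 and 37.9%. Most peaks of each list thus overlapped none, and the share overlapping the other antibody cannot be higher.

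**Figure D1:**
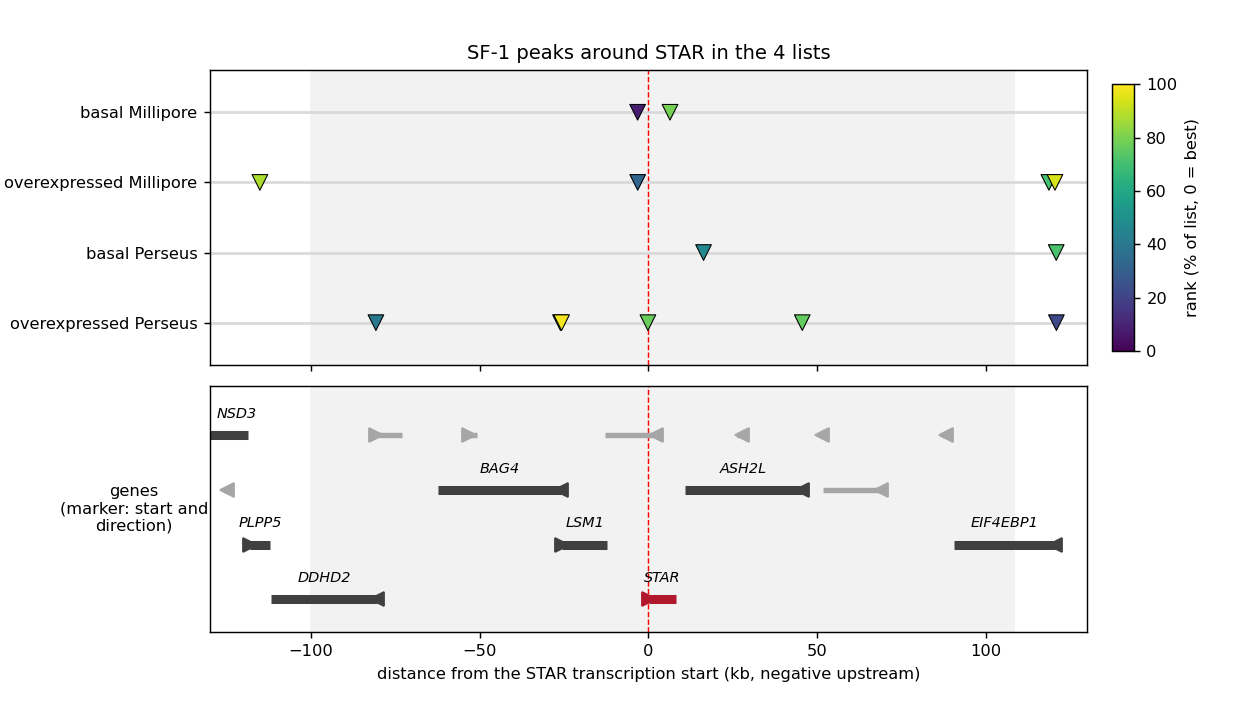
Peaks around STAR in the 4 lists (top, triangles at peak centres, coloured by rank as percent of the list, 0 being best) and canonical transcripts of the annotated genes (bottom, STAR in red, other protein-coding genes dark, noncoding genes light), plotted by distance from the STAR start in kb, with negative values upstream. The grey band is the window that defined the 9 peaks, and the 2 peaks at the start of LSM1 and BAG4 overlie each other about 26 kb upstream. The 5 peaks of the overexpressed Perseus list sit at gene starts, and 5 further peaks of 3 lists lie just outside the band.

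The upstream site was the best-ranked of the 9 peaks. In the basal Millipore list it spanned chr8:38011551-38011849, 299 bp, and ranked 343, or 7.81% of the list. Its centre lay 3190 bp upstream of the STAR start. In the overexpressed Millipore list it spanned chr8:38011551-38011799, 249 bp, and ranked 3839, or 32.2% of that list, with its centre at 3165 bp upstream. The narrower peak lay wholly within the wider one, with centres 25 bp apart, less than the 50 bp grid on which starts were placed. The site is in intron 1 of the long noncoding RNA gene ENSG00000253356, which is read in the opposite direction to STAR from a start inside the STAR gene. STAR has the nearest protein-coding start.

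Of basal Millipore peaks 12.4% overlapped an overexpressed Millipore peak, and 4.53% the other way round, so that a site found at both dosages was uncommon. Of the basal list 5.44% was found with Millipore at both dosages and with Perseus at neither, as this site was. Overlap with any other list was found for 20.9% of basal and 16.6% of overexpressed Millipore peaks, but for 58.1% of the best-ranked 10% of the basal list, to which this site belongs, so that overlap as such was usual at its rank. The nearest overexpressed Perseus peak was 3.05 kb away, and the nearest basal Perseus peak 19.6 kb. Peaks at least 299 bp wide made up 5.51% of the basal Millipore list. The rank as percent of the list was 24.4 points worse at overexpressed than at basal dosage. Over all 544 basal peaks found at both dosages with this antibody, the median shift was -0.7 points (quartiles -26.9 and 15.9), and 19.3% of them lost at least as much rank as the STAR site. The shift is thus outside the middle range of shared peaks. These peaks had any basal rank, however, and a site ranked as well as this one can lose more rank than it can gain. It was not compared with shared peaks of like basal rank. Nor is the shift a change in signal, since ranks also depend on which other peaks were called.

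The other basal Millipore peak lay within STAR itself, at chr8:38002051-38002149, 6410 bp downstream of the start. It was 99 bp wide, the narrowest width in the list and the width of 1624 of its peaks, and ranked 3476, or 79.1% of the list. It fell in intron 6 of the canonical transcript, which has 7 exons, and on an exon of 1 other STAR transcript, without touching coding sequence. This was the only peak of the 9 with its centre inside the STAR gene body. Such a peak was present in 9.41% of the 20163 protein-coding genes for this list, and in 23.8, 15.6 and 17.9% for overexpressed Millipore, basal Perseus and overexpressed Perseus. No peak of another list overlapped it. The nearest was the overexpressed Perseus peak at the STAR start, 6.55 kb away.

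The single basal Perseus peak lay at chr8:37992051-37992249, 16360 bp downstream of the STAR start and 8068 bp beyond the end of the gene. It fell in intron 13 of ASH2L, which encodes a core subunit of histone H3 lysine 4 methyltransferase complexes and is read towards STAR. The start of ASH2L is farther away, at 29139 bp, so that the start of STAR was the nearest of a protein-coding gene. The peak was 199 bp wide and ranked 3125, or 47.2% of the list. It overlapped no peak of another list, as was the case for most of the basal Perseus list, of which 37.7% overlapped one.

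**Figure D2:**
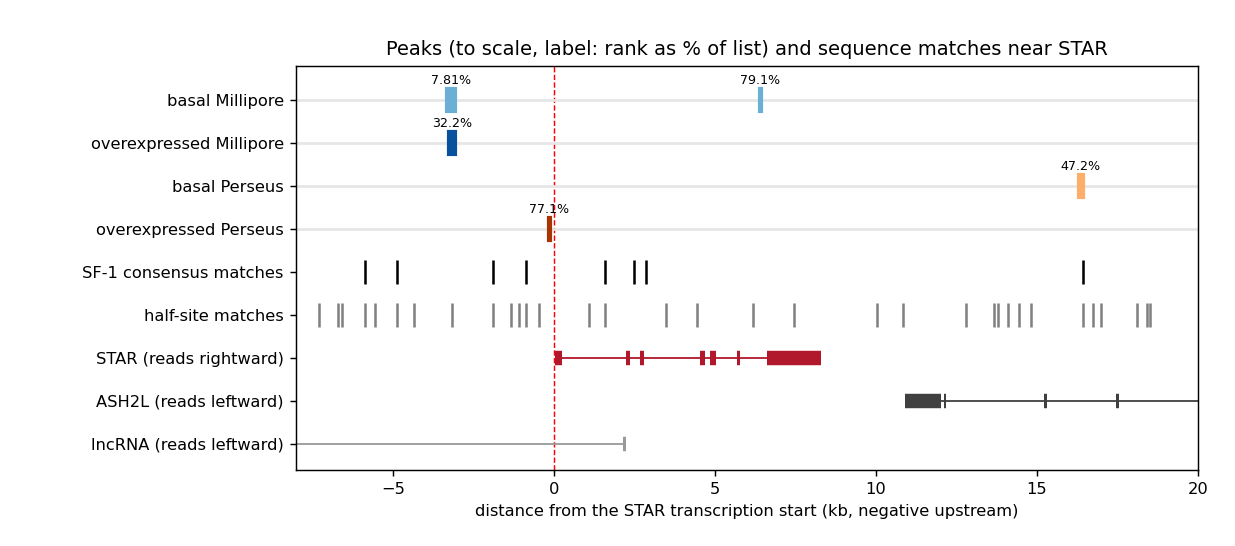
Peaks of the 4 lists drawn to scale, each with its rank as percent of the list, above matches of the SF-1 consensus and of the half-site and the canonical exons (boxes) of STAR, ASH2L and the noncoding gene ENSG00000253356, from 8 kb upstream to 20 kb downstream of the STAR start. The 2 Millipore peaks about 3 kb upstream cover the same place, the overexpressed Perseus peak lies just upstream of the start, and of the consensus matches shown the one near 16.4 kb downstream lies in a peak.

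At overexpressed dosage the Perseus antibody gave a peak next to the STAR start, at chr8:38008601-38008699. Its centre was 140 bp upstream of the outermost annotated start and 180 bp upstream of the start of the canonical transcript. It was 99 bp wide and ranked 5743, or 77.1% of the list. Of all protein-coding genes 10.5% had a peak of this list within 1 kb of the outermost start. For the other lists these shares were 1.02% (basal Millipore), 8.19% (overexpressed Millipore) and 9.56% (basal Perseus), and STAR was without such a peak in each of them. In these 3 lists the nearest peaks were the Millipore peaks about 3 kb upstream and the Perseus peak 16.4 kb downstream. The peak at the start overlapped no peak of another list.

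The remaining 4 overexpressed Perseus peaks lay at the starts of neighbouring genes. Upstream of STAR, chr8:38034201-38034299 (rank 7333, 98.4% of the list) and chr8:38034501-38034649 (rank 4451, 59.7%) fell where LSM1 and BAG4 start in opposite directions. LSM1 encodes a subunit of the ring that promotes decapping and decay of mRNA, and BAG4 encodes a co-chaperone of Hsp70. The first of these peaks was centred 2 bp upstream of the outermost LSM1 start and 123 bp upstream of the canonical BAG4 start. The second was centred 202 bp downstream of that BAG4 start and overlapped coding sequence of its exon 1.

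Farther upstream, chr8:38089251-38089349 (rank 3045, 40.9%) lay in exon 1 of the canonical transcript of DDHD2, a gene of a phospholipase and triglyceride lipase, outside its coding sequence. It was 197 bp downstream of that transcript's start, although 6564 bp from the outermost start of the gene, and its centre was 87 bp from the start of the noncoding gene ENSG00000285632. Downstream of STAR, chr8:37962801-37962949 (rank 5653, 75.8%) was centred 136 bp upstream of the outermost ASH2L start. These 4 peaks lay between 25.7 and 80.8 kb from the STAR start. Each was 99 or 149 bp wide, and none overlapped a peak of another list.

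All 5 overexpressed Perseus peaks were thus within 1 kb of the start of a canonical protein-coding transcript, against 29.6% of that list. Measured from outermost starts, the planned measure, the number was 4 of 5, against 26.6%. The measure from canonical starts was added after the data were seen. None of the other 4 peaks lay within 1 kb of a start by either measure, where the shares of their lists from outermost starts were 4.19% (basal Millipore), 12.6% (overexpressed Millipore) and 26.4% (basal Perseus). From canonical starts they were 4.21, 13.9 and 28.8%. Of all overexpressed Perseus peaks 37.9% overlapped a peak of another list, of those near canonical starts 44.7% and of the worse-ranked 3727 peaks 27.8%. At STAR and its neighbours none of the 5 did so, and 4 of them were among those 3727.

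**Figure D3:**
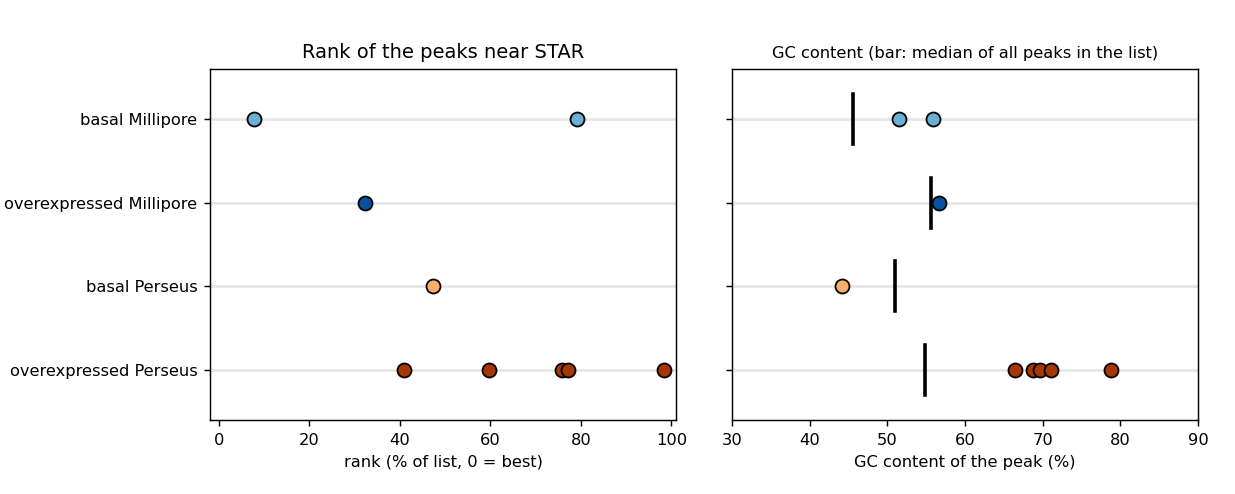
Rank as percent of the list (left, 0 being best) and GC content (right) of each of the 9 peaks near STAR, by list. The black bars on the right mark the median GC content of all peaks in the list. The basal Millipore peak upstream of STAR stands at 7.81% and the 5 overexpressed Perseus peaks lie between 40.9% and 98.4%, with GC content to the right of the median of their list.

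The 9 peaks also differed in base composition, which the rule did not use. The 5 peaks at gene starts had a GC content of 66.4 to 78.8%, where the median of the overexpressed Perseus list was 54.8% and 29.8% of its peaks reached 65%. The site 3 kb upstream had 55.9% and 56.6% GC in the basal and overexpressed Millipore lists, against list medians of 45.6% and 55.6%. The intronic basal Millipore peak had 51.5%, and the basal Perseus peak had the lowest value, 44.2%, against a list median of 51.0%. The ratio of observed to expected CpG was 0.442 at the STAR start and between 0.694 and 0.884 at the starts of ASH2L, LSM1, BAG4 and DDHD2. It was at most 0.105 in the other 4 peaks. A GC content above 65% was thus found near STAR in the overexpressed Perseus list and in none of the other 3, and the part of base composition in the difference between the lists was not tested.

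The SF-1 consensus was searched on both strands as TCAAGGTCA, with C also allowed at the first and the seventh position and G also at the last. The window held 18 matches, of which 1 lay in a peak. This was the basal Perseus peak in ASH2L, with the match 77 bp from its centre. The consensus is present in 21.6% of that list and in 1.38% of windows of the same width 5 kb to each side. The other 8 peaks held no match, where the shares of their lists were 16.0% (basal Millipore), 10.9% (overexpressed Millipore) and 17.2% (overexpressed Perseus).

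Near STAR itself the consensus had 7 matches within 6 kb of the start, the nearest 872 bp upstream, and none of these lay in a peak of any list. Between 250 bp upstream and 50 bp downstream of the start there was no match, also with 1 mismatch allowed. These letters are absent from that window, which says nothing about binding. The shorter core TCAAGG, tried after these results were seen, had 1 match there, on the strand opposite to STAR and centred 65 bp upstream of the start. It was 24 bp outside the edge of the overexpressed Perseus peak, within the grid on which peaks were placed. That core is found in 22.2% of the overexpressed Perseus peaks and in 8.27% of windows 5 kb away. It was in none of the 9 peaks, where the other lists had it in 20.1% (basal Millipore), 19.0% (overexpressed Millipore) and 23.1% (basal Perseus).

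The half-site AGGTCA, which the consensus can contain, was present in both peaks of the upstream site, 29 bp from the basal and 4 bp from the overexpressed peak centre, without the flanking letters of the full consensus. It was present in 19.9% of basal and 19.3% of overexpressed Millipore peaks, against 10.5% and 13.5% of windows 5 kb away, so that its presence is not rare. It was also present in the basal Perseus peak (22.2% of that list) and in the peak at the LSM1 start (20.4% of the overexpressed Perseus list). With 1 mismatch the consensus was found in 4 of the 9 peaks, which were the intronic STAR peak (34.6% of the basal Millipore list), the ASH2L intron peak (44.7% of the basal Perseus list) and the peaks at the ASH2L and DDHD2 starts (46.8% of the overexpressed Perseus list). The overexpressed Millipore peak was without one, against 42.2% of its list. Windows 5 kb away held one in 17.5% (basal Millipore), 24.2% (overexpressed Millipore), 20.5% (basal Perseus) and 21.7% (overexpressed Perseus). The whole window around STAR held 362 such matches, of which 4 lay in a peak. The consensus of NRSF/REST, the silencer of neuronal genes that the study relates to SF-1, with at most 4 mismatches, had no match anywhere in the window. It was present in 1.12 and 0.781% of basal and overexpressed Millipore peaks and in 0.227 and 0.322% of basal and overexpressed Perseus peaks. Windows 5 kb away held it in 0.0455% (basal Millipore), 0.189% (overexpressed Millipore), 0.106% (basal Perseus) and 0.114% (overexpressed Perseus).

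The study asked how SF-1 sites change with its dosage, and for STAR the answer in peak numbers differed between antibodies. With Millipore the number within 100 kb was 2 at basal and 1 at overexpressed dosage. With Perseus it was 1 and 5. Within 10 kb of the gene body the numbers were 2 and 1 for Millipore and 1 and 1 for Perseus. The equal Perseus numbers stood for different places, the ASH2L intron at basal dosage and the STAR start on overexpression. The other 4 overexpressed Perseus peaks lay at the starts of neighbouring genes. The number also depended on list length. With every list reduced to its 4393 best-ranked peaks, 1 of the 5 remained, which was the DDHD2 peak (rank 3045), and the peak at the STAR start (rank 5743) was lost. The peaks of each list were counted once, on pooled libraries, and the difference was not tested.

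A further group of peaks lay just beyond the edge of the window, and at 200 kb the overexpressed Millipore number was 4 and the basal Perseus number 2. The farthest peak inside was the DDHD2 peak, 80.8 kb from the gene body. The nearest outside lay 110 to 113 kb downstream around the start of EIF4EBP1, which encodes a repressor of cap-dependent translation. An overexpressed Perseus peak (rank 1615, 21.7%) and a basal Perseus peak (rank 4718, 71.3%) lay there 527 and 477 bp upstream of the start, and overexpressed Millipore peaks (ranks 11208 and 8401) lay 102 bp upstream and 1698 bp downstream of it. On the other side an overexpressed Millipore peak (rank 10417) lay 115 kb from STAR. Its centre was in exon 6 of the canonical PLPP5 transcript, 3061 bp downstream of the start of PLPP5. That place is also within the DDHD2 gene body, beyond the end of the canonical DDHD2 transcript. In the basal Millipore list the next peak was 371 kb away, near FGFR1, and ranked 336.

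Set beside all protein-coding genes, STAR was unremarkable in 2 lists and in the upper part of the distribution in the others. For 19.5% of genes a peak within 100 kb was present in all 4 lists, as for STAR. The 2 basal Millipore peaks of STAR were equalled or exceeded by 12.1% of genes and its 5 overexpressed Perseus peaks by 5.73%. With peaks within 500 bp merged, STAR had 4 overexpressed Perseus peaks, and the shares over genes were not counted on merged peaks. Its single overexpressed Millipore peak was exceeded by 44.3% of genes and its single basal Perseus peak by 27.7%. Since neighbouring genes share peaks, genes are not independent here. Longer genes also have wider windows, and gene length was not accounted for.

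**Figure D4:**
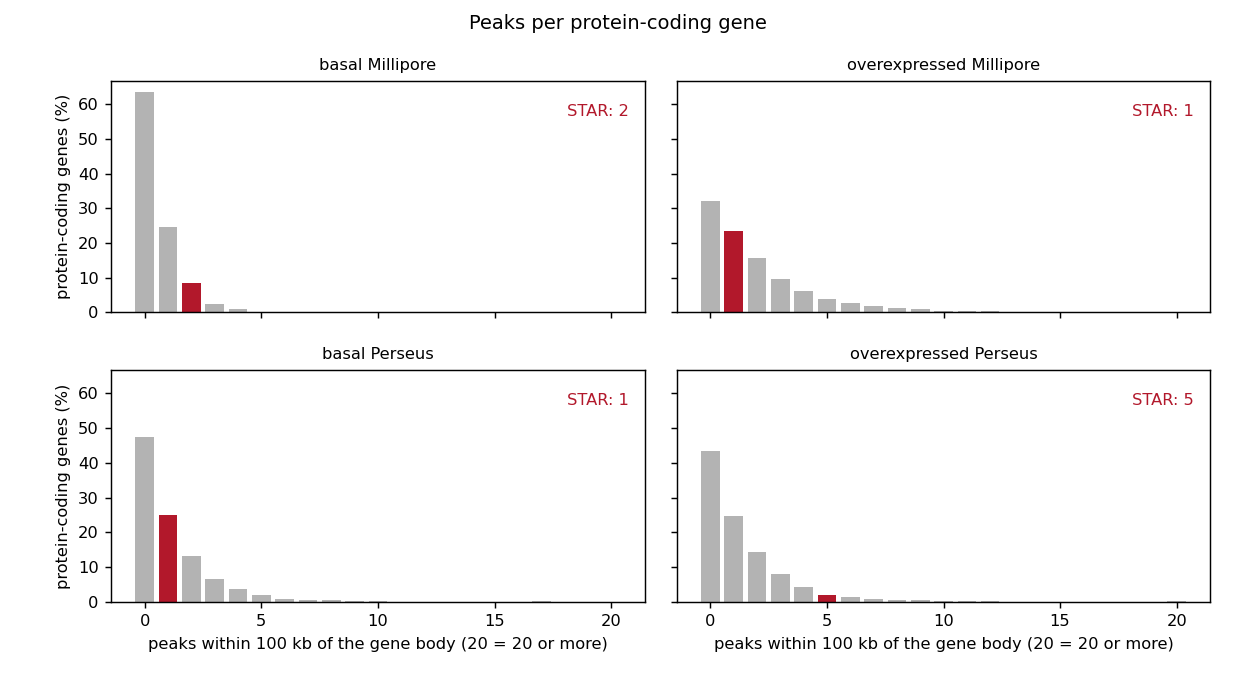
Share of the 20163 protein-coding genes by the number of peaks within 100 kb of the gene body, in each of the 4 lists, with the number for STAR in red (the last bin holds 20 or more peaks). STAR falls at 2 and 1 peaks in the basal and overexpressed Millipore lists and at 1 and 5 in those of Perseus.

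Among the genes whose 4 counts were most like those of STAR, by the sum of absolute differences over the 4 lists, ADAMTS6 and SUMF1 had a sum of 0 and PRKACG and NRCAM a sum of 1. In all, 9 genes had a sum of at most 1. The window counted grows with the gene body, which is longer than that of STAR for ADAMTS6, SUMF1 and NRCAM and shorter for PRKACG. Like counts are therefore not like densities of peaks. PRKACG, which encodes a catalytic subunit of protein kinase A, had 2 and 1 Millipore and 1 and 4 Perseus peaks. NRCAM, which encodes a neuronal adhesion molecule, had 2 and 1 Millipore and 1 and 4 Perseus peaks, with an overexpressed Perseus peak 461 bp downstream of its start.

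Steroid synthesis was represented by 18 other genes. With Millipore, 9 of them had a peak within 100 kb at basal dosage and 13 on overexpression, and with Perseus 12 and 13. Neighbouring genes that share a peak were each counted, as were CYP11B1 with CYP11B2 and HSD3B1 with HSD3B2. The shares of all protein-coding genes given above were 36.5 and 67.9%, and 52.6 and 56.7%. In lists of equal length the Millipore numbers were 9 and 8, without the rise, and the Perseus numbers 8 and 9. Of all 20163 protein-coding genes, 7366 and 8211 had a Millipore peak in such lists, and 8434 and 8697 a Perseus peak. CYP11A1, the enzyme that uses the cholesterol delivered by StAR, had 5 basal and 19 overexpressed Millipore peaks and 3 and 5 Perseus peaks. It thus had more Millipore peaks on overexpression where STAR had fewer, and the difference between the genes was not tested. An overexpressed Millipore peak lay 187 bp downstream of the CYP11A1 start. POR, the electron donor of microsomal P450 enzymes, had 10 overexpressed Millipore peaks, 1 of them 307 bp downstream of its start, and 6 overexpressed Perseus peaks. FDX1, the ferredoxin that passes electrons to CYP11A1, had a basal Perseus peak 28 bp from its start, and HSD11B2, which inactivates cortisol, an overexpressed Millipore peak 955 bp upstream. None of the 18 genes had an overexpressed Perseus peak within 1 kb of its outermost start, where 10.5% of all protein-coding genes had one, so that with 18 genes little can be read from this. The nearest of that list were 1637 bp downstream for CYP11A1 and 2243 bp upstream for POR.

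The START domain family shares the lipid-binding fold of StAR. Of 14 members, 3 had a peak within 100 kb with Millipore at basal dosage, or 21.4%, and 10 on overexpression, or 71.4%. With Perseus 7 and 10 had one. Of all protein-coding genes 36.5 and 67.9% had one with Millipore and 52.6 and 56.7% with Perseus. In lists of equal length the numbers for the family were 3 and 4 with Millipore and 4 and 6 with Perseus. Those of all 20163 protein-coding genes were then 7366 and 8211 with Millipore and 8434 and 8697 with Perseus. STARD3, a late endosomal cholesterol transporter, was the only member with more basal Millipore peaks than STAR, 4 against 2, and none of its peaks lay within 1 kb of the start. Overexpressed Perseus peaks lay near the starts of STARD5 at 324 bp, STARD7 at 235 bp upstream and STARD9 at 346 bp, and an overexpressed Millipore peak 213 bp from that of STARD4. STARD8 and DLC1 had no peak in any list.

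Of 14 factors known to act on the STAR promoter, 4 and 10 had a peak within 100 kb with Millipore at basal and overexpressed dosage, or 28.6 and 71.4%, and 6 and 11 with Perseus, or 42.9 and 78.6%. The shares of all protein-coding genes were again 36.5 and 67.9%, and 52.6 and 56.7%. In lists of equal length the numbers for the factors were 4 and 6 with Millipore and 6 and 9 with Perseus. Those of all 20163 protein-coding genes were then 7366 and 8211 with Millipore and 8434 and 8697 with Perseus. NR5A1, the gene of SF-1 itself, had peaks within 1 kb of its start in 3 lists, at 951 bp upstream (basal Millipore), 524 bp downstream (overexpressed Millipore) and 51 bp upstream (overexpressed Perseus). As for STAR, the basal Perseus list held no peak within 1 kb of that start. NR4A1, an orphan receptor induced by ACTH, had a basal Perseus peak 884 bp from its start, CEBPB an overexpressed Millipore peak at 133 bp and SREBF1, a regulator of lipid synthesis, one at 691 bp. NR0B1, the repressor DAX-1, as well as CREB1 and FOS were without a peak in all lists. These shares of the 3 gene groups are a description over few genes.

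**Figure D5:**
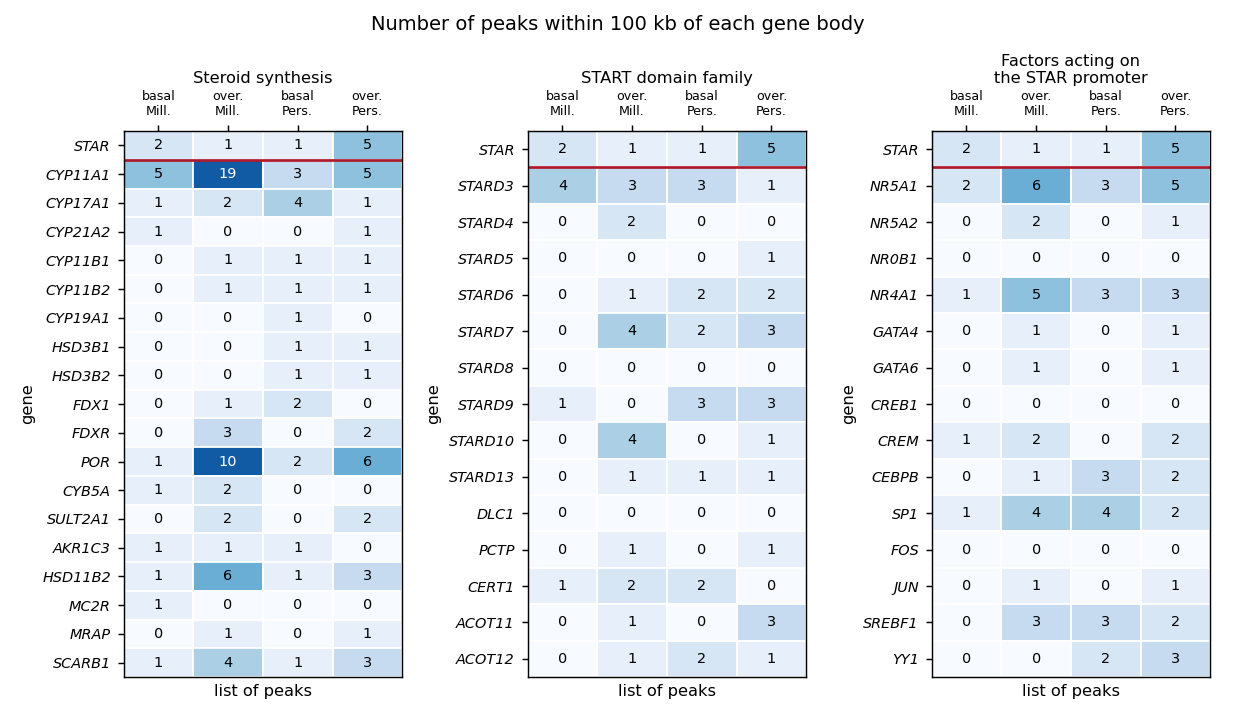
Number of peaks within 100 kb of the gene body in each of the 4 lists (columns, basal and overexpressed dosage with the Millipore and Perseus antibodies) for STAR, above the red line, and for 18 genes of steroid synthesis, 14 of the START domain family and 14 factors known to act on the STAR promoter. CYP11A1 has the highest number, 19 in the overexpressed Millipore list, where STAR has 1.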

How the data were processed

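SF-1 ChIP-seq was performed in H295R/TR SF-1 cells, with 3 libraries pooled in each of 4 groups and 2 of input DNA. Per their methods, the authors mapped reads to hg19 with ELAND v2 and called peaks on the libraries of a condition together with the SeqPeak algorithm of CisGenome v2. The submitters' processing notes name CASAVA 1.6. Each list deposited by the authors gives positions, a rank and a score, which is 1000 for every peak and carries no measurement. Ranks start at 1 and were not compared as signals. Deeper sequencing can yield more and weaker peaks, and the part of depth, which is unknown, in list length was not tested.

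Groups were taken from sample titles. Positions, printed with 1-based coordinates, were joined to the GRCh37 sequence, which is the hg19 build, and to GENCODE version 44 mapped to it. Distances ran from peak centres, and starts were the outermost of each gene unless named canonical. Peaks overlapping by at least 1 bp were counted as shared. Sequences were searched on both strands of peaks and of windows of the same width 5 kb to each side. With 1 list per group no test was possible, and values stand beside shares over all peaks or genes. Overlaps were checked with intervals placed at the edges of basal Millipore peaks. Peak counts near genes and nearest peak centres were checked against a direct search of that list. The motif search was checked on simulated sequences with planted copies.

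The members, gene lists and measures were chosen with earlier results of these data known. The named genes were STAR, the genes at or nearest to each peak, the protein-coding genes of the window, 3 lists (steroid synthesis, START domain family, factors known to act on the STAR promoter), with values for members with a peak within 1 kb of the start or with the most peaks, and the 5 genes farther than 500 kb from STAR whose 4 counts were most like its own, ties being broken by distances of the nearest peaks from the start. Of these 5 genes, 1 is not reported here. STARD8, DLC1, NR0B1, CREB1, FOS, PLPP5, FGFR1, CYP11B1, CYP11B2, HSD3B1 and HSD3B2 were named after their values were seen. Python 3.11.15, numpy 2.4.6, scipy 1.17.1, pysam 0.24.0, matplotlib 3.10.9 and samtools 1.23.1 were used.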

Additional observations from a re-analysis of the deposited data

Results flagged for a closer look

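The number of peaks within 100 kb of the STAR gene body moved in opposite directions with dosage in the lists of the 2 antibodies, by -1 (from 2 to 1) with Millipore and by 4 (from 1 to 5) with Perseus. This rests on 1 list per group, and the difference was not tested. With peaks within 500 bp merged the numbers were 2 and 1 for Millipore and 1 and 4 for Perseus. With every list reduced to its 4393 best-ranked peaks the numbers were 2 and 1 for Millipore and 1 and 1 for Perseus. The overexpressed Perseus peak counted there was that at DDHD2, 80.8 kb away, and the peak at the STAR start was lost.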

How the results depend on the processing

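No paired analysis was possible because each group is 1 list called on pooled libraries and no test was made, and for the same reason no library could be left out. Of 108 alternative values for 36 results, 79 stayed near the reported value and 29 moved. No distance changed sign, and the other values are counts, which cannot. Staying near was a loose measure, which held for 7366 genes with a basal Millipore peak against 5075 at 50 kb. The number of overexpressed Perseus peaks near STAR was 1 within 10 kb of the gene body, the peak at the STAR start, and 1 in the better-ranked 50% of the list and in lists of equal length, where it was the DDHD2 peak instead. In the better-ranked 50% the basal Millipore number was 1, and at 200 kb the overexpressed Millipore number was 4 and the basal Perseus number 2. With 1 mismatch the SF-1 consensus was in 1 basal Millipore and 2 overexpressed Perseus peaks, the half-site was in 1 basal Millipore, 1 overexpressed Millipore and 1 overexpressed Perseus peak, and the core, added after seeing the data, was in 0 basal Perseus peaks. Genes with a peak numbered 4344 for the better-ranked 50% of basal Millipore peaks and 8211 for overexpressed Millipore at equal length. At 10 kb the numbers of steroid synthesis genes were 4, 6, 4 and 7 (basal and overexpressed Millipore, then Perseus), those of the START family 5, 2 and 6 (overexpressed Millipore, basal and overexpressed Perseus) and those of the factors 2 and 6 (basal and overexpressed Perseus). At equal length they were 8 for steroid synthesis and 6 for the factors with overexpressed Millipore, and 4, 4 and 6 for the START family (overexpressed Millipore, basal and overexpressed Perseus). From the nearest of all STAR transcript starts the basal Perseus peak was 14122 bp away. The smaller windows and shorter lists hold fewer peaks by construction. Counting canonical starts, added after seeing the data, gave 5 in place of 4 overexpressed Perseus peaks within 1 kb. Since read depth is unknown, a place without a peak cannot be called unbound.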
